A study of Danio rerio with 5 samples.

Results

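The *MYCN*-driven neuroblastomas that arose in *lmo1*-/- zebrafish were described library by library, with the aim of finding which transcripts were shared by the libraries and which differed between them. All libraries of the genotype dbh:EGFP;MYCN;lmo1-/- were taken, which are 3 of the 5 RNA-Seq libraries of the series, and are called library 1, library 2 and library 3 after the numbers in their labels. The other genotype was not used, so no comparison between genotypes is made. Each fish carried *MYCN* and EGFP transgenes driven by the *dbh* (dopamine beta-hydroxylase) promoter, which is active in noradrenergic cells, and was homozygous for an *lmo1* knockout allele. The RNA came from EGFP+ cells, isolated by sorting from tumors of juvenile animals. Neither the labels nor the methods give the age or sex of each fish, say whether a library is 1 tumor or several, or name a batch. With 1 group of 3 libraries there is no test between groups, and every difference below is a description of single libraries with no replicate check. As RNA was taken from bulk cells, fewer cells of a type and less RNA per cell cannot be told apart.

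Neuroblastoma is a childhood tumor of the sympathoadrenal lineage, the neural crest cells that form sympathetic neurons and chromaffin cells. In zebrafish, the *dbh*-driven tumors start in the interrenal gland, the fish counterpart of the adrenal gland, where chromaffin cells lie among steroid-producing cells beside the head kidney, a site of blood formation. In the adrenergic state of the tumor, a small set of transcription factors (HAND2, GATA3 and ISL1 among them) form a core regulatory circuitry, or CRC, and bind their own enhancers as well as the catecholamine genes. LMO1 is a LIM-only protein that holds such factors together without binding DNA itself.

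The knockout line was made with 1 CRISPR guide to exon 2 of *lmo1*, and it is printed because the *lmo1* mutation in all 3 libraries was made with it. Written 5′ to 3′, with the 12 bases nearest to the PAM in capitals, it reads as follows.
lmo1 exon 2 guide: ggagagggAGATCAGATCGA
Reads were counted per gene, so the counts of *lmo1* do not separate mutant from wild-type transcripts, and do not check the knockout. *lmo1* stood at 24.6, 21.0 and 41.9 RPKM (reads per kilobase of exon, scaled to the mapped reads of the library) in libraries 1, 2 and 3.

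Between 48144549 and 55782865 reads per library were counted on genes, 75% to 76.6% of the reads mapped. A value of 0 allows up to 3 counts, which on 1 kb of exon is 0.0410 to 0.0467 RPKM, and this floor covers counting error alone. Of the 30647 genes listed, 22947 had a count and 12172 reached at least 1 RPKM in at least 1 library. These 12172 genes are called detected. This filter favours genes that are high in a single library: *zgc:154061*, at 0.644, 0.598 and 1.00 RPKM, is the gene just inside it, and *uap1*, at 1.00, 0.772 and 0.853 RPKM with an unrounded highest value under the limit, is just outside. The defining markers of the labelled tissue were high in every library. *dbh* stood at 546, 514 and 688 RPKM, and *th* (tyrosine hydroxylase, which makes the catecholamine precursor L-DOPA) at 603, 546 and 884 RPKM. All 13 mitochondrially encoded genes found in the files are listed at 0 in every library.

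The most abundant transcripts were those of the translation machinery, in all 3 libraries. By mean RPKM, the 15 most abundant genes included *rplp0*, *RPL41*, *rps12*, *RPL37A*, *rpl26*, *rpl32*, *rps7*, *rplp2l*, *rps2*, *gnb2l1*, *rps23*, *rplp1*, *rps14* and *rpl18*. Of these, *gnb2l1* encodes the ribosome-bound scaffold RACK1, and the others named encode ribosomal proteins. *rplp0* stood at 12432, 11064 and 9526 RPKM (mean, 11007 ± 1454; SD, n = 3) and *rpl18*, the last of the 15, at 5782, 6186 and 5027 RPKM (mean, 5665 ± 588; SD, n = 3). The 83 ribosomal protein genes took 40.3% of all counts in library 1, 44.9% in library 2 and 36.6% in library 3 (mean, 40.6% ± 4.17; SD, n = 3). By RPKM their median SD was 0.153 on the log2(RPKM + 0.1) scale, against 0.331 over all detected genes. After scaling with TMM, a normalization that sets the bulk of genes equal between libraries, the order was the other way round, with 0.319 against 0.287. Library 2 held the highest RPKM of 73 of the 83 genes, and of 82 after TMM scaling. Library 2 was highest in 10.1% of all detected genes by RPKM. Several ribosomal protein genes have near-identical copies, which the counting can split between them.

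Outside the ribosomal protein genes, the most abundant transcripts encode elongation factors, chaperones and metabolic proteins. *eef1a1l2* and *eef2b*, which encode translation elongation factors, stood at 4673, 3991 and 4051 RPKM and at 3485, 2239 and 2246 RPKM. *tpt1*, which encodes the translationally controlled tumor protein, stood at 3603, 4379 and 3363 RPKM. In each of these 3 genes the libraries lay within 1.56-fold. The mitochondrial ADP/ATP carrier gene *slc25a5* was among the steadiest of the abundant genes, at 2161, 2079 and 2009 RPKM, as was the cytosolic chaperone gene *hsp90ab1*, at 1858, 1781 and 1826 RPKM. *tmsb4x*, which encodes the actin-binding peptide thymosin beta 4, varied more and stood at 523, 751 and 1023 RPKM. The greatest range among the 25 most abundant of these other genes was that of *CR318588.4*, at 1825, 3659 and 2281 RPKM, a 2.005-fold range.

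Most genes differed little between the libraries. The highest library lay less than 2-fold above the lowest in 77.8% of the detected genes, on the log2(RPKM + 0.1) scale. Across these genes, which are not independent replicates, Pearson's r of log2(RPKM + 0.1) was 0.947 between libraries 1 and 2, 0.918 between libraries 1 and 3 and 0.941 between libraries 2 and 3. The biological coefficient of variation, the spread left after counting error in edgeR, was 0.354. The median SD fell with the level, from 0.645 in genes with a mean under 1 RPKM to 0.190 in genes with a mean of at least 100 RPKM. Detected genes with a mean under 1 RPKM reach that level in some library and lie under it in another. Part of their spread is thus built in by the filter. The median SD was 0.344 at a mean of 1 to 10 RPKM and 0.276 at 10 to 100 RPKM.

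At least a 4-fold range was seen in 556 of the 12172 detected genes (4.57%). The share was 24.0% in genes with a mean under 1 RPKM, where the filter builds in part of the spread. It was 1.24% in genes with a mean of at least 100 RPKM. The gene just inside this limit was *plcb3*, at 2.2, 0.722 and 3.19 RPKM, and just outside it was *myo10l1*, at 1.88, 0.683 and 0.395 RPKM. Library 3 was the one farthest from the middle value in 320 of these genes (57.6%), above the other libraries in 244 and below them in 76. Library 1 was farthest in 143 genes, above in 58 and below in 85, and library 2 in 93 genes, above in 28 and below in 65. The RPKM itself placed library 3 above library 2 by a median of 0.34 on the log2 scale over all detected genes, and library 3 was highest in 56.1% and library 2 lowest in 54% of them. After TMM scaling library 2 lay above library 3 by a median of 0.01, and of 521 genes with a 4-fold range, library 3 was farthest above in 175 and farthest below in 123. Among genes with a 4-fold range, library 3 thus stood apart most often under both scalings, whereas its balance of high to low genes depended on the scaling. By RPKM, libraries 1 and 2, 1 and 3, and 2 and 3 differed at least 2-fold in 1385, 1445 and 1327 detected genes. After TMM scaling these numbers were 1070, 1396 and 980. By RPKM, at least a 4-fold difference was seen in 157 genes between libraries 1 and 2. It was seen in 404 genes between libraries 1 and 3 and in 322 between libraries 2 and 3.

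**Figure D1:**
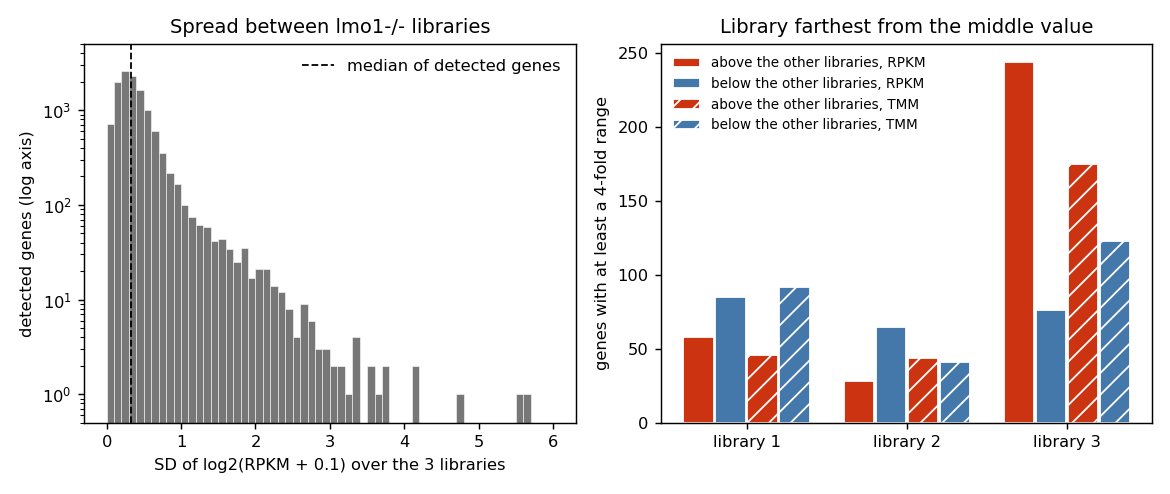
Left, number of detected genes (log axis) by the SD of log2(RPKM + 0.1) over the 3 *lmo1*-/- libraries, with the median of 0.331 as a dashed line. Right, among genes with at least a 4-fold range, the number in which each library was the one farthest from the middle value, above (red) or below (blue) the others, as RPKM (plain) and after TMM scaling (hatched), with library 3 apart in 320 of 556 genes as RPKM and 298 of 521 after TMM scaling.

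Only 4 genes with a mean of at least 100 RPKM had a 4-fold range. All 4 were highest in library 3 by RPKM and by TMM, as were 347 and 336 of all 556 genes with a 4-fold range. The mean and the range use the same values, and *crhbp* and *cst3* exceeded 100 RPKM in library 3 only, so this direction is partly built in. *crhbp*, which encodes the binding protein of corticotropin-releasing hormone, stood at 7.32, 0.190 and 587 RPKM. *cst3*, a secreted cysteine protease inhibitor of the cystatin family, stood at 48.6, 69.7 and 347 RPKM. The homeobox gene *hoxb8a* stood at 44.9, 129 and 277 RPKM, and the linker histone gene *h1f0* at 152, 75.4 and 329 RPKM. *crhbp* was therefore among the abundant transcripts of library 3 and close to the floor, with 20 counts, in library 2.

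The 20 genes with the largest SD, among detected genes with at least 50 counts in the highest library, were *s100z*, *crhbp*, *asip1*, *zgc:153426*, *si:ch1073-170o4.1*, *si:ch73-167f10.1*, *si:dkey-27j5.5*, *si:ch211-131k2.3*, *lrrc4.2*, *wu:fc75a09*, *insm1b*, *si:ch211-132b12.1*, *si:ch211-114n24.6*, *BX005056.1*, *mdka*, *irs2a*, *mhc2dab*, *si:ch211-181d7.3*, *agtr1a* and *mei4*. The SD of the last was 2.996, and the next gene outside stood at 2.995, so the limit of 20 is one of convenience. Of the 20 genes, 10 carry only a clone-based name. By RPKM, 13 of them were highest in library 3, 4 in library 1 and 3 in library 2. After TMM scaling the numbers were 13, 3 and 4, respectively. Of all detected genes, 56.1% were highest in library 3 by RPKM and 29.7% after TMM scaling, as were 347 and 336 of all 556 genes with a 4-fold range. Several of the 20, such as *asip1*, *mdka* and *lrrc4.2*, passed the filter of 1 RPKM through library 3 alone. Their direction is therefore partly built in.

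Among the 20 genes, those highest in library 3 included genes of secreted signals, receptors and a neuroendocrine transcription factor. *s100z*, which encodes a small calcium-binding protein of the S100 family, had 18, 1 and 12728 counts, at 0.240, 0.0138 and 154 RPKM. The ratio of library 3 to library 2 was 11170 (95% counting interval, 2005 to 441300), and library 3 lay 640-fold above library 1. *s100z* and *crhbp* are next to each other in the RefSeq annotation of the GRCz12tu assembly, with 0 protein-coding genes between them, and both were ordered library 3, library 1, library 2. *asip1*, which encodes agouti signaling protein, an antagonist of melanocortin receptors in pigment patterning, had 5, 5 and 3120 counts, at 0.104, 0.108 and 58.9 RPKM. In *asip1*, libraries 1 and 2 were alike and library 3 stood 548-fold above the nearer of them.

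*insm1b*, a zinc finger transcription factor gene of neuroendocrine differentiation, had 10, 1 and 1226 counts, at 0.0686, 0.00707 and 7.61 RPKM. Its paralog *insm1a*, which is not among the 20, stood at 6.56, 3.88 and 27.0 RPKM, and the libraries came in the same order. *mdka*, which encodes the heparin-binding growth factor midkine, stood at 0.138, 0.197 and 13.6 RPKM, and *lrrc4.2*, of a family of synaptic adhesion proteins, at 0.0625, 0.0644 and 12 RPKM. In both, library 3 alone was above 1 RPKM. *agtr1a*, a type 1 angiotensin II receptor gene, stood at 0.660, 3.40 and 47.1 RPKM, a 71.4-fold range in which library 2 lay between the others.

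The remaining patterns among the 20 genes set library 1 or library 2 apart. *irs2a*, an insulin receptor substrate gene, had 2642, 1 and 1719 counts, at 5.90, 0.00230 and 3.47 RPKM, so that it was missing from library 2 only. Library 1 lay 2562-fold above library 2 in *irs2a* (95% counting interval, 459.5 to 101200). *mhc2dab*, which encodes a beta chain of MHC class II, stood at 0.0423, 5.25 and 7.60 RPKM, close to the floor in library 1 only. *zgc:153426* stood at 27.9, 7.48 and 0.00782 RPKM and *si:ch211-181d7.3* at 4.04, 3.68 and 0.00213 RPKM, each with 1 count in library 3. *mei4*, known for the formation of meiotic DNA breaks in mouse, was the one gene with a full name that was highest in library 2, at 0.164, 12.8 and 0.418 RPKM. *si:ch73-167f10.1* and *si:ch211-131k2.3* were also highest there, at 4.56, 38.5 and 0.115 RPKM and at 0.0793, 24.7 and 4.65 RPKM.

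**Figure D2:**
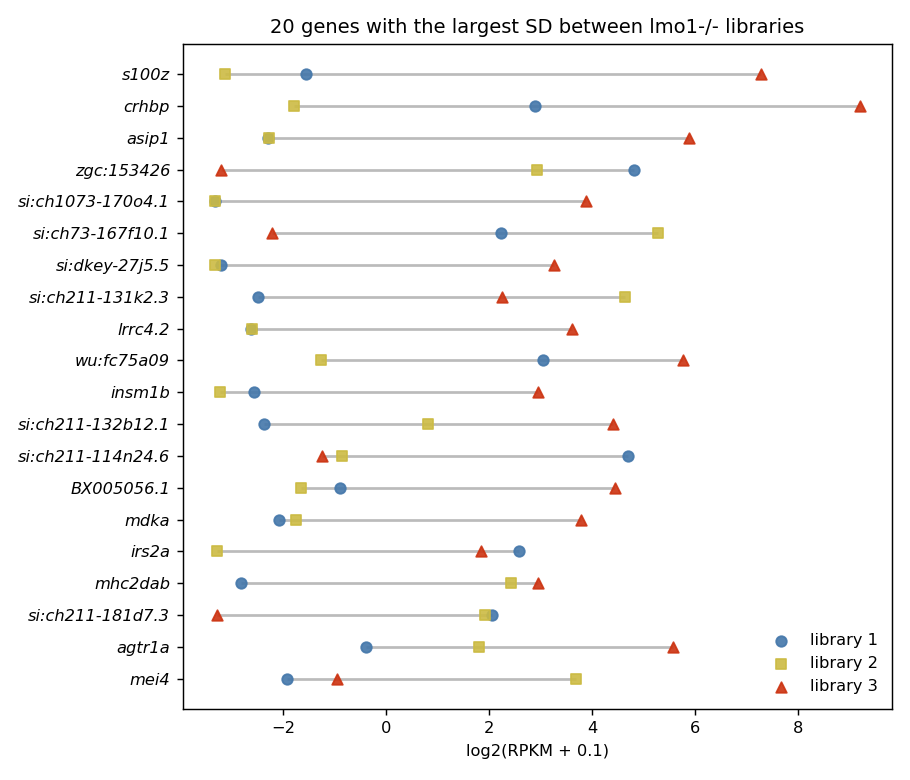
Level of the 20 genes with the largest SD, as log2(RPKM + 0.1), in library 1 (blue circles), library 2 (yellow squares) and library 3 (red triangles), with a grey line from the lowest to the highest library. Red triangles lie at the right end in 13 of the 20 genes and at the left end in 4.

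Genes that were present in one library and close to absent in another were counted with fixed limits, at least 50 counts in one library and at most 3 in another. There were 195 such genes (0.85% of the 22947 genes with a count), of which 68 were detected genes (0.559% of all detected genes). The highest library was library 3 in 119 of them, library 1 in 41 and library 2 in 35. After TMM scaling the numbers were 113, 39 and 43. Of all detected genes, 56.1% by RPKM and 29.7% after TMM scaling were highest in library 3. The limits are raw counts, and library 3 had the most reads counted on genes. With counts scaled to the smallest total, 171 genes met the limits. Without library 3, 53 genes met the limits. Library 1 alone was at or under 3 counts in 59 genes, library 2 alone in 51 and library 3 alone in 34. Over all detected genes, libraries 1, 2 and 3 were lowest in 35%, 54% and 11% by RPKM. In 39 genes library 3 alone was above 3 counts, compared with 8 genes for library 1 and 4 genes for library 2. Most of these genes were weakly expressed even where they were highest, with a median highest count of 92 and under 100 counts in 106 genes. Just inside the limit were *BX005294.2*, with 3, 50 and 12 counts, and *caps2*, with 2, 36 and 50 counts. *CR376825.1*, with 0, 1 and 49 counts, and *si:ch211-215p11.3*, with 13, 2 and 49 counts, were just outside. Clone-based names were carried by 73 of the 195 genes (37.4%), compared with 27.5% of the genes with a count.

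**Figure D3:**
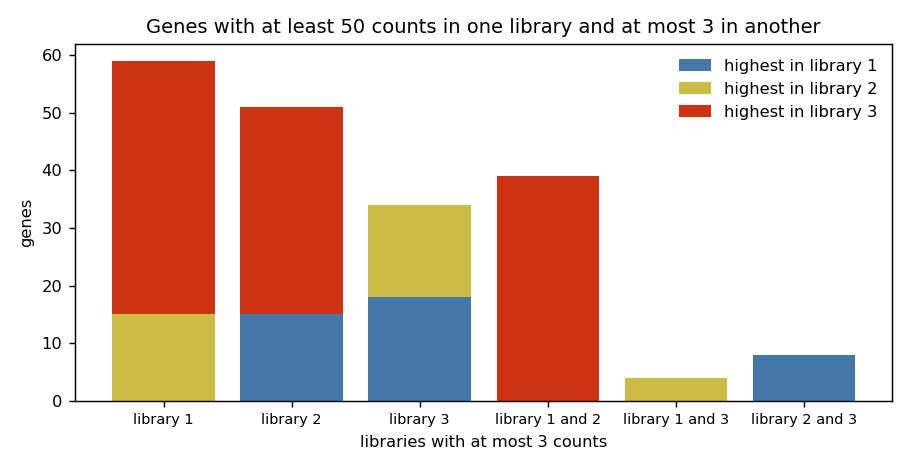
Number of genes with at least 50 counts in one *lmo1*-/- library and at most 3 in another, by which libraries had at most 3 counts (horizontal axis), with the color giving the library that was highest. The tallest bar is for library 1 alone, with 59 genes, and the 39 genes missing from both library 1 and library 2 were all highest in library 3.

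The genes seen in library 3 and close to absent elsewhere were led by *si:dkey-27j5.5*, with 1, 0 and 1256 counts, and *si:ch1073-170o4.1*, with 0, 0 and 1047 counts. Against a floor of 3 counts in the library at 0, they were at least 367.4-fold and at least 315.8-fold higher in library 3. *graf4b* followed with 2, 2 and 572 counts. *camkvb*, which encodes a kinase-like protein of synaptic vesicles, had 1, 0 and 294 counts and *fam46bb* had 0, 0 and 245 counts.

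In library 1 alone, the leading genes of this kind were *gcga*, with 383, 3 and 0 counts, *stk31*, with 213, 1 and 0 counts, and *CR774179.2*, with 146, 2 and 1 counts. *gcga* and *gcgb* encode glucagon, the hormone of pancreatic alpha cells, and *gcgb* had 116, 1 and 0 counts. *otx2*, a homeobox gene of the anterior brain and eye, had 111, 0 and 0 counts. In library 2 alone, the 4 genes were *CABZ01112188.1*, with 1, 278 and 2 counts, *ccr11.1*, of the chemokine receptor family, with 0, 128 and 0 counts, *trim55b*, with 0, 73 and 1 counts, and *FP236197.1*, with 0, 64 and 0 counts. *ccr11.1* was at least 44.0-fold higher in library 2 than in a library at the floor.

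In other genes, a single library had at most 3 counts. Missing from library 1 were *adamts1* (a secreted metalloprotease gene), with 1, 6 and 807 counts, *tatdn2*, with 2, 684 and 32 counts, *igf2bp1* (an mRNA-binding protein gene of fetal tissue and tumors), with 0, 53 and 465 counts, *zgc:152977*, with 1, 56 and 417 counts, and *vegfaa* (the angiogenic growth factor VEGF-A), with 1, 19 and 377 counts. *tatdn2* was the one of these that was highest in library 2. Missing from library 2, beside *s100z*, *irs2a* and *insm1b*, were *c3a.2* (complement C3), with 663, 0 and 12 counts, and *egln3* (a prolyl hydroxylase that acts on hypoxia-inducible factor), with 8, 0 and 565 counts. Missing from library 3, beside *zgc:153426* and *si:ch211-181d7.3*, were *pth2r* (a receptor of the parathyroid hormone family), with 461, 607 and 0 counts, *pitx1* (a homeobox gene of pituitary and hindlimb), with 209, 463 and 0 counts, and *BX957322.1*, with 236, 170 and 1 counts. *pth2r* was at least 230.5-fold and *pitx1* at least 175.8-fold higher in library 2 than in library 3.

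Among the adrenergic CRC genes, the greatest spread was that of *isl1* and *tfap2b*. Of 18 genes listed, 14 were detected and 1 was at 0 in every library. The list also held *mycn* and the mutated gene *lmo1*, which the study describes as a cofactor outside the CRC. Of the detected genes 3 had a 4-fold range (21.4%, against 4.57% of all detected genes). The median SD of the 14 genes was 0.513 against 0.331 over all detected genes. *isl1*, a LIM homeobox factor of sympathetic and motor neurons, stood at 0.467, 2.53 and 7.70 RPKM, in the reverse order of *tfap2b*, a neural crest factor, at 19, 5.03 and 1.87 RPKM. *isl1* thus had a 16.5-fold range with library 3 highest, and *tfap2b* a 10.2-fold range with library 3 lowest. *gata3*, a zinc finger factor of sympathetic neurons, stood at 28.1, 9.05 and 7.94 RPKM, with library 1 above the others.

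The more abundant CRC genes differed less between the libraries. *hand2* stood at 380, 425 and 564 RPKM, a 1.48-fold range. *phox2a* stood at 65.8, 37.7 and 56.9 RPKM, *gata2a* at 78.5, 36.6 and 54.8 RPKM and *tfap2a* at 110, 96.2 and 129 RPKM. Library 2 was the lowest in all but *hand2* of these 4 genes by RPKM. After TMM scaling the range of *tfap2a* was 0.06 on the log2 scale, so its libraries had no clear order. *tbx2b* (2.35, 2.67 and 4.55 RPKM), *klf7a* (1.75, 0.970 and 1.95 RPKM), *klf7b* (5, 3.24 and 3.98 RPKM) and the cofactor gene *lmo1* each had a range of at most 2.01-fold. *tbx2a* had at most 2 counts in any library, *gata2b* had 27, 1 and 5, and the endogenous zebrafish *mycn* gene had 2, 2 and 12.

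Of the 24 detected sympathoadrenal genes, 4 had a 4-fold range (16.7%, against 4.57% of all detected genes), and the median SD was 0.410 against 0.331. Beside *insm1a* and *insm1b*, these were *gch1* and *scg2b*. *gch1*, the rate-limiting enzyme for the cofactor of tyrosine hydroxylase, stood at 0.926, 1.96 and 6.49 RPKM, and *scg2b*, a secretogranin of dense-core vesicles, at 5.13, 1.28 and 5.56 RPKM. The vesicular monoamine transporter gene *slc18a2* stood at 24.0, 16.3 and 63.0 RPKM, a 3.86-fold range. The chromogranin genes were ordered differently, with *chga* at 10.2, 25.6 and 16.0 RPKM and *chgb* at 5.30, 6.61 and 16.1 RPKM. *chga* was thus highest in library 2 and *chgb* in library 3. Library 3 was highest in 18 of the 24 genes by RPKM and in 15 after TMM scaling, against 56.1% and 29.7% of all detected genes.

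Stathmin genes, which encode tubulin-binding proteins of growing neurites, were a list added after the values had been seen. Of its 6 detected genes 3 had a 4-fold range (50%, against 4.57% of all detected genes). Library 3 was highest in all 6 by RPKM and in 5 after TMM scaling, against 56.1% and 29.7% of all detected genes. Library 2 was lowest in 4 of the 6 by both, against 54% of all detected genes by RPKM and 30.5% after TMM scaling. *stmn4* stood at 19.1, 1.58 and 21.7 RPKM, *stmn4l* at 37.5, 3.64 and 62.9 RPKM and *stmn1b* at 59.3, 15.5 and 136 RPKM. Library 2 was lowest in these 3 genes, chosen for their range, whereas *stmn2a* stood at 72.6, 73.6 and 74.9 RPKM, a 1.03-fold range.

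Genes of the *hoxb* a-cluster were expressed in proportions that differed between the libraries. In vertebrates, the order of *hox* genes along a cluster follows the order of their expression along the body axis, from low numbers at the head end to high numbers at the tail end. This list and that of the other *hox* genes were added after the values had been seen. Of 11 genes, 9 were detected and 1 was at 0 in every library. A 4-fold range was seen in 5 of the 9 (55.6%, against 4.57% of all detected genes). The median SD was 1.21 against 0.331 over all detected genes. *hoxb5a* stood at 73.9, 29.3 and 13.8 RPKM and *hoxb6a* at 143, 87.0 and 66.4 RPKM, both highest in library 1 and lowest in library 3. *hoxb8a* (44.9, 129 and 277 RPKM) and *hoxb9a* (1.18, 15.8 and 38.5 RPKM) had the opposite order, and these 2 genes are neighbours in the RefSeq annotation. Between them in paralog number, *hoxb7a* hardly differed, at 98.9, 84.7 and 87.0 RPKM.

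The most abundant gene of the cluster was thus *hoxb6a* in library 1 and *hoxb8a* in libraries 2 and 3. *hoxb9a* had a 32.5-fold range and *hoxb8a* a 6.16-fold range. Library 2 was the highest in *hoxb4a*, at 2.01, 7.74 and 1.1 RPKM, and in *hoxb10a*, with 0, 293 and 15 counts, at least 100.7-fold above the floor of library 1. At the head end of the cluster, *hoxb2a* stood at 1.16, 1.12 and 0.986 RPKM and *hoxb3a* at 11.8, 9.10 and 8.43 RPKM, with ranges of 1.18-fold and 1.40-fold. Among the 37 other *hox* genes listed, 8 were detected and 21 had 0 counts in every library. Of the detected genes, *hoxc8a* stood at 1.21, 1.55 and 23.2 RPKM and *hoxc3a* at 1.79, 0.880 and 8.24 RPKM, both highest in library 3. In contrast, *hoxd9a* stood at 3.81, 4.81 and 0.175 RPKM and *hoxc4a* at 5.50, 2.11 and 0.896 RPKM, lowest in library 3.

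**Figure D4:**
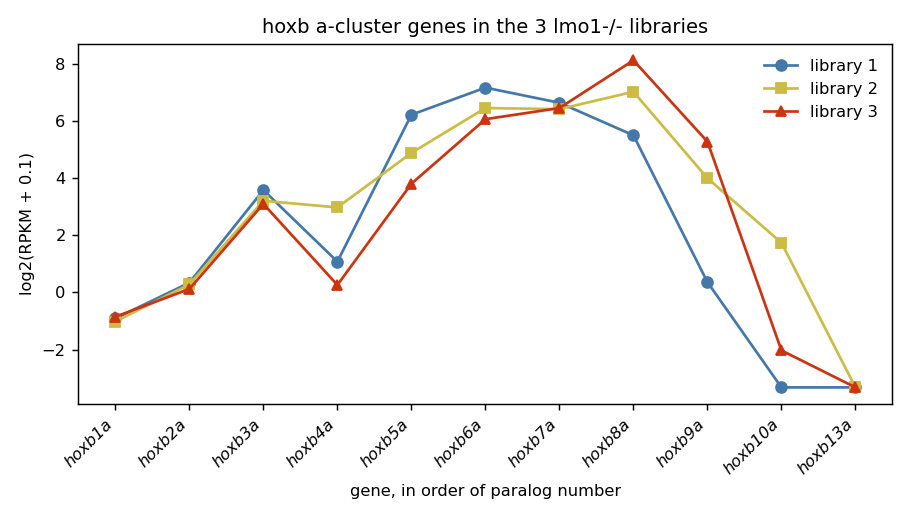
Level of the 11 *hoxb* a-cluster genes, as log2(RPKM + 0.1), by paralog number, in library 1 (blue circles), library 2 (yellow squares) and library 3 (red triangles), with lines joining the genes of a library. The lines come together at *hoxb7a* (98.9, 84.7 and 87.0 RPKM), with library 1 highest in *hoxb5a* and *hoxb6a* and library 3 highest in *hoxb8a* and *hoxb9a*.

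IFN response genes had the largest median SD of the lists with at least 10 detected genes, and were high in library 3. Of 27 genes listed, 21 were detected and 11 had a 4-fold range (52.4%, against 4.57% of all detected genes). The median SD was 1.1 against 0.331 over all detected genes. Library 3 was highest in 18 of the 21 by both scalings, against 56.1% of all detected genes by RPKM and 29.7% after TMM scaling. All 11 genes with a 4-fold range were highest in library 3, by RPKM and after TMM scaling, as were 347 and 336 of all 556 such genes. Without library 3 the median SD of the list was 0.207, against 0.268 over all detected genes. *isg15*, a ubiquitin-like protein conjugated to targets during antiviral responses, stood at 4.30, 8.72 and 35.1 RPKM, *stat1b*, a transcription factor of IFN signaling, at 0.687, 0.817 and 7.05 RPKM, and *mxb*, an antiviral GTPase, at 0.458, 0.704 and 5.68 RPKM. *mxe* stood at 0.723, 0.0685 and 3.39 RPKM. The neighbouring genes *rsad2* (viperin), at 0.112, 0.106 and 1.90 RPKM, and *cmpk2*, at 0.496, 0.436 and 4.03 RPKM, had the same pattern, with libraries 1 and 2 alike. Of the genes named, *stat1b*, *mxb*, *mxe*, *rsad2* and *cmpk2* passed the filter of 1 RPKM through library 3 alone. Their direction is therefore partly built in. *stat1a*, the most abundant of the list by mean, stood at 13.0, 13.0 and 28.8 RPKM, a smaller range of 2.22-fold.

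Genes of MHC class I and antigen processing were highest in library 3 in 17 of 19 detected genes by RPKM and in 15 after TMM scaling, against 56.1% and 29.7% of all detected genes. A 4-fold range was seen in 1 of the 19 genes (5.26%), against 4.57% of all detected genes. *b2m*, the shared light chain of MHC class I, stood at 183, 233 and 487 RPKM, and *psmb13a*, an immunoproteasome subunit gene, at 4.84, 7.04 and 18.1 RPKM. *mhc1zba*, a class I heavy chain gene, stood at 56.2, 87.2 and 129 RPKM. An exception was *mhc1uba*, a class I heavy chain gene, which stood at 2.00, 2.73 and 0.0753 RPKM and was close to absent from library 3. Zebrafish lines carry different sets of class I and class II genes, and reads of a haplotype that the reference lacks can be lost, so values of single *mhc* genes are uncertain.

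Neutrophil and macrophage markers were also high in library 3, where 56.1% of all detected genes were highest by RPKM and 29.7% after TMM scaling. Of 6 detected lymphoid genes, 3 were highest in library 3 by RPKM and 2 after TMM scaling. Of 7 detected erythroid genes, the numbers were 2 and 0. The lymphoid and erythroid lists are given at the end and are too short for a contrast between cell types. Neutrophil markers summed to 37.0, 57.2 and 157 RPKM over the 13 genes found. Of 9 detected genes, 5 had a 4-fold range (55.6%, against 4.57% of all detected genes). In 8 of the 9, library 3 was highest, by RPKM and after TMM scaling. *lyz* (lysozyme) stood at 11.6, 24.9 and 75.5 RPKM, *lect2l* at 4.88, 12.7 and 39.7 RPKM and *npsn* at 3.34, 6.34 and 16.2 RPKM, whereas the defining marker *mpx* stayed under 1 RPKM, at 0.378, 0.312 and 0.788. Macrophage markers summed to 152, 120 and 218 RPKM over 26 genes, and 17 of 21 detected genes were highest in library 3 by both scalings. *cd74a*, the MHC class II invariant chain and most abundant of that list, stood at 67.0, 54.5 and 76.7 RPKM, and *mpeg1.1* at 1.48, 1.27 and 2.99 RPKM. *apoeb*, at 0.329, 0.436 and 4.01 RPKM, and *mfap4*, at 0.332, 0.171 and 2.29 RPKM, had the greatest ranges. Both passed the filter of 1 RPKM through library 3 alone. The part of the neutrophil and macrophage markers in the levels of the IFN and MHC genes was not tested.

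Targets of the glucocorticoid receptor, the receptor of the cortisol made by interrenal cells, were also high in library 3. Library 3 was highest in 12 of 14 detected genes by RPKM and in 10 after TMM scaling, against 56.1% and 29.7% of all detected genes. A 4-fold range was seen in 4 of the 14 (28.6%, against 4.57%), all highest in library 3 by both scalings. By RPKM, 347 of all 556 genes with a 4-fold range were also highest there. The median SD was 0.652 against 0.331 over all detected genes. *tsc22d3* (GILZ) stood at 19, 25.7 and 130 RPKM, *hsd11b2*, which inactivates cortisol, at 0.274, 1.71 and 9.43 RPKM, and *fkbp5*, a chaperone partner of the receptor, at 46.2, 61.6 and 108 RPKM. *mt2* (metallothionein) stood at 18.8, 16.9 and 86.4 RPKM, and the receptor gene *nr3c1* itself at 6.16, 5.26 and 5.94 RPKM, a 1.17-fold range. By contrast, the steroid-producing genes of the interrenal gland were lowest in library 3. All 7 detected interrenal markers were highest in library 1 by RPKM, and 6 after TMM scaling, and all 7 were lowest in library 3 by both. Over all detected genes, library 1 was highest in 33.8% by RPKM and in 37.1% after TMM scaling. Library 3 was lowest in 11% of them by RPKM and in 29.8% after TMM scaling. *star*, which carries cholesterol into mitochondria, stood at 51.9, 45.6 and 23.0 RPKM, *cyp11c1*, the last enzyme of cortisol synthesis, at 2.47, 0.698 and 0.298 RPKM, and *cyp17a2* at 3.28, 1.47 and 0.695 RPKM. The list summed to 69.2, 56.4 and 28.6 RPKM over 15 genes, of which *hsd3b2* was at 0 in every library. What these cells contributed to the other lists was not tested.

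Immediate early and heat shock genes were lowest in library 2 in 18 of 27 detected genes by RPKM and in 17 after TMM scaling. Over all detected genes the shares were 54% and 30.5%. Library 1 was highest in 13 of the 27 genes (48.1%) and library 3 in 12 (44.4%) by RPKM, against 33.8% and 56.1% of all detected genes. After TMM scaling the numbers were 13 and 9, against 37.1% and 29.7% of all detected genes. A 4-fold range was seen in 12 of the 27 genes (44.4%, against 4.57% of all detected genes). The median SD of the list was 0.919 against 0.331. Of the 12 genes 8 were highest in library 1 and 4 in library 3, by both scalings. Of all 556 genes with a 4-fold range, 129 were highest in library 1 and 347 in library 3 by RPKM. *egr1*, an early growth response factor, stood at 36.9, 1.12 and 1.92 RPKM, *fosab* at 74.0, 4.27 and 9.87 RPKM and *jun* at 149, 24.7 and 63.8 RPKM, the last pair being subunits of AP-1. Library 2 was lowest in all 3, and library 1 stood apart from both others in *egr1* and *fosab*. A second group was highest in library 3, among them *cebpd*, at 2.41, 2.61 and 23.3 RPKM, *gadd45bb*, at 1.24, 0.294 and 5.94 RPKM, and *atf3*, at 0.179, 0.0231 and 1.11 RPKM. *hspa8*, the constitutive chaperone of the list, stood at 1112, 1185 and 1203 RPKM, a 1.08-fold range.

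Proliferation genes had 1 member with a 4-fold range among 18 detected (5.56%, close to the 4.57% of all detected genes). Library 2 was lowest in 14 of the 18 by RPKM and in 12 after TMM scaling, against 54% and 30.5% of all detected genes. The replication helicase genes *mcm7* (35.3, 10.3 and 34.8 RPKM), *mcm2* (7.79, 2.43 and 6.81 RPKM) and *mcm5* (8.36, 3.02 and 6.45 RPKM) were lowest in library 2, with ranges of 3.43-fold, 3.2-fold and 2.77-fold. *mki67*, which encodes the marker protein Ki-67, stood at 1.23, 1.01 and 2.48 RPKM and *pcna* at 45.3, 35.3 and 69.9 RPKM. *birc5a* (survivin) was the gene with the greatest range, at 0.0515, 0.372 and 1.1 RPKM.

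In the hypoxia and glycolysis list, 4 of 23 detected genes had a 4-fold range (17.4%, against 4.57% of all detected genes). The median SD was 0.302, below the 0.331 of all detected genes. Library 3 was highest in 16 of the 23 by RPKM and in 9 after TMM scaling, against 56.1% and 29.7% of all detected genes. The 4 genes, *vegfaa* (0.00570, 0.112 and 1.94 RPKM), *egln3* (0.0523, 0 and 3.35 RPKM), *ndrg1a* (3.6, 1.99 and 13.6 RPKM) and *ankrd37* (7.55, 8.67 and 36.4 RPKM), are known targets of hypoxia-inducible factor. All 4 were highest in library 3 by both scalings, as were 347 and 336 of all 556 genes with a 4-fold range. *vegfaa* and *egln3* passed the filter of 1 RPKM through library 3 alone, so their direction is partly built in. Glycolytic enzyme genes were steadier, with *gapdhs* at 487, 449 and 574 RPKM and *pgk1* at 64.2, 81.1 and 97.4 RPKM. *hk2* had the opposite order, at 3.23, 2.53 and 1.63 RPKM. In the list of ATF4 and unfolded protein response genes, 2 of 24 detected genes had a 4-fold range (8.33%, against 4.57% of all detected genes), and the median SD of 0.330 was close to the 0.331 of all detected genes. The 2 genes were *phgdh*, of serine synthesis, at 0.0831, 0.0791 and 1.35 RPKM, and *trib3*, at 1.53, 0.215 and 2.09 RPKM, whereas the ER chaperone gene *hspa5* was highest in library 1, at 94.4, 61.0 and 48.3 RPKM.

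Of the 37 detected circadian clock genes, none had a 4-fold range by RPKM, against 4.57% of all detected genes. The median SD of 0.391, in contrast, was above the 0.331 of all detected genes, as it was after TMM scaling (0.394 against 0.287). *tefa*, an output regulator of the clock, stood at 31.8, 51.0 and 65.0 RPKM, *nr1d2a*, a repressor of the Rev-Erb family, at 9.72, 14.1 and 30.0 RPKM, and *per2* at 14.7, 6.84 and 15.9 RPKM. The greatest spread was that of *nfil3-6*, at 1.94, 1.85 and 5.78 RPKM. The widest of these ranges, that of *bhlhe41*, was 3.28-fold as a ratio of RPKM.

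**Figure D5:**
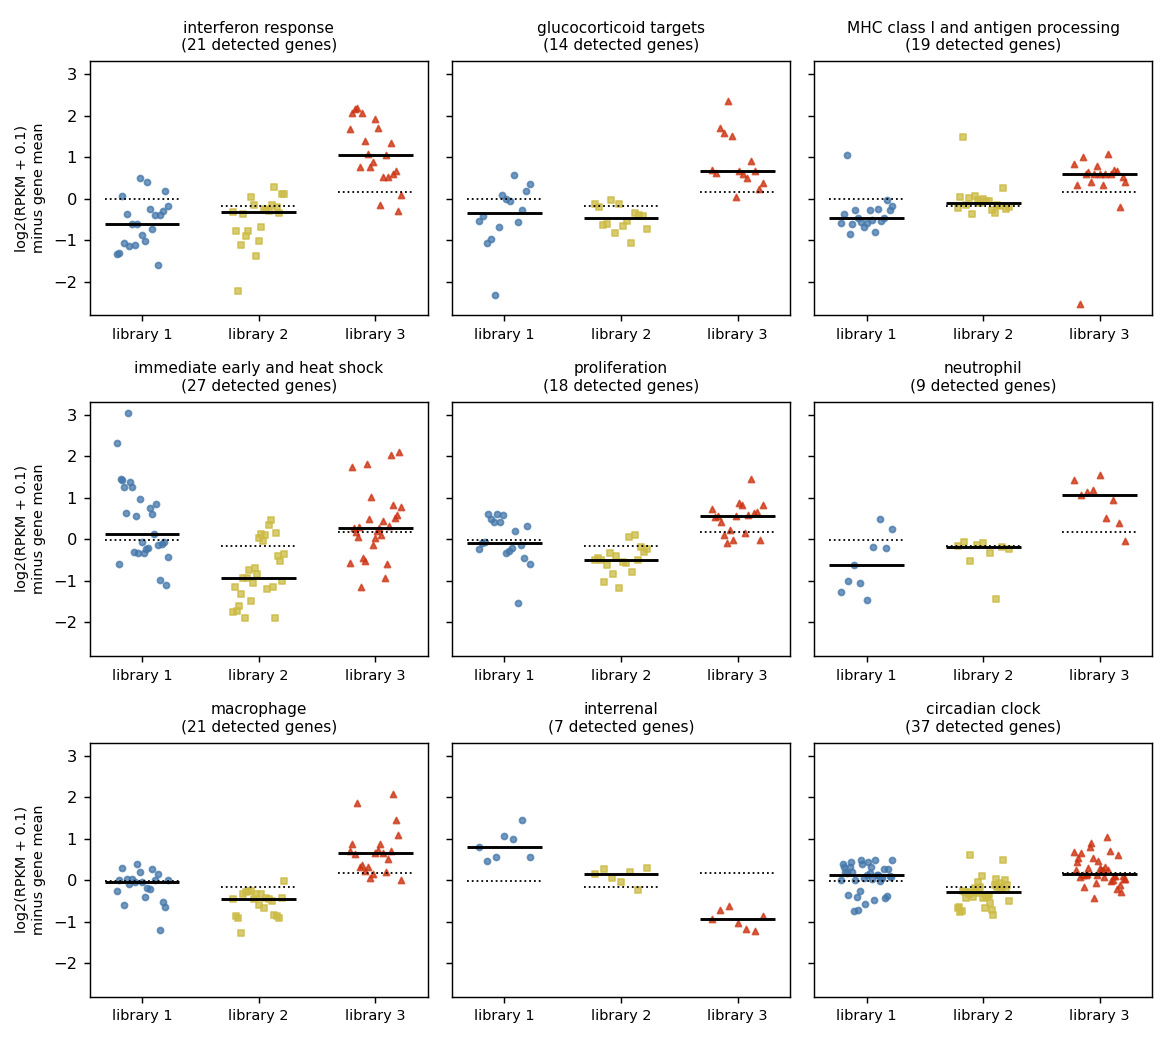
For 9 lists, each detected gene as its log2(RPKM + 0.1) minus its mean over the 3 *lmo1*-/- libraries, in library 1 (blue circles), library 2 (yellow squares) and library 3 (red triangles). Black bars are list medians and dotted lines the medians of all detected genes, and the IFN, glucocorticoid and neutrophil lists lie highest in library 3, the immediate early list lowest in library 2, and the interrenal list lowest in library 3.

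Markers of organs near the interrenal gland were scarce, and the few that were detected differed between the libraries. Pancreatic islet genes, a list added after the values had been seen, were highest in library 1 in 5 of 6 detected genes. Library 1 was highest in 33.8% of all detected genes by RPKM. The exception in the list was the prohormone convertase gene *pcsk1*, at 6.44, 4.65 and 8.75 RPKM. *ins* (insulin) had 435, 18 and 31 counts, at 13.6, 0.582 and 0.879 RPKM, and the somatostatin genes *sst1.1* and *sst2* had 69, 0 and 1 counts and 58, 0 and 1 counts. Another somatostatin gene, *sst6*, which the list did not hold, had 4, 10 and 88 counts and was highest in library 3. With *gcga* and *gcgb*, 5 of 6 detected islet genes had a 4-fold range (83.3%, against 4.57% of all detected genes). These 5 genes passed the filter of 1 RPKM through library 1 alone, so their direction and their range are partly built in. The islet factor gene *pdx1* had 16, 4 and 0 counts. Exocrine pancreas markers summed to 19.6, 22.5 and 10.2 RPKM over 16 genes. All 6 detected exocrine genes were lowest in library 3 by RPKM and after TMM scaling, against 11% and 29.8% of all detected genes. Among them were *prss59.1*, at 1.13, 2.23 and 0.194 RPKM, and *ela2l*, at 0.778, 1.06 and 0.108 RPKM. Weak genes pass the filter of 1 RPKM through the libraries where they are high, as *ela2l* did through library 2 alone. The filter thus favours such a direction.

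Liver markers summed to 6.78, 6.36 and 0.697 RPKM over 18 genes, and all 3 detected genes had a 4-fold range with library 3 lowest. Of all detected genes 4.57% had a 4-fold range, and 24.0% of those with a mean under 1 RPKM. Library 3 was lowest in 11% of all detected genes by RPKM and in 29.8% after TMM scaling. The limit of the filter for weak genes holds here too. *apoa1b* had 136, 116 and 1 counts, *apoa2* 46, 76 and 1 counts and *fabp10a* 77, 64 and 12 counts. Without library 3 the median SD of the detected liver genes was 0.150 in place of 1.84, against 0.268 over all detected genes. The thrombocyte, endothelial, kidney tubule and germ cell lists had no detected gene. Fibroblast markers had 5 detected genes of 17 found, with *mmp2* at 2.23, 7.72 and 3.68 RPKM, *col6a1* at 1.48, 0.560 and 0.208 RPKM and *tagln* at 1.59, 0.916 and 0.168 RPKM. In the same list the defining collagen genes *col1a1a* and *col1a2* stayed under 1 RPKM, and *bgna* was at 0 in every library. The part of cells of other organs in the lists above was not tested.

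Erythroid markers had 7 detected genes of 16 found, and summed to 66.5, 58.5 and 71.0 RPKM. *hbba1* stood at 27.2, 19.2 and 28.3 RPKM and *hbaa1* at 14.0, 17.9 and 17.8 RPKM, whereas *hbaa2*, at 0.781, 3.61 and 4.14 RPKM, was low in library 1. Globin genes have near-identical copies, so values of single copies are uncertain. Lymphoid markers had 6 detected genes of 24 found, none with a 4-fold range, against 4.57% of all detected genes. *nkl.2*, a natural killer lysin gene, stood at 79.1, 28.9 and 22.7 RPKM, while *lck*, *cd8a* and *zap70* had at most 15 counts each and *cd79b* and *pax5* were at 0 in every library. The Schwann cell list had 1 detected gene, *mbpb*, at 2.70, 3.76 and 3.71 RPKM, the epidermal list 1, *icn*, at 66.7, 47.5 and 38.9 RPKM, and the skeletal muscle list 3, led by *mylpfb*, at 5.68, 5.45 and 8.02 RPKM.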

How the data were processed

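Per the labels, total RNA of sorted EGFP+ tumor cells was depleted of ribosomal RNA and sequenced on an Illumina NextSeq, whereas the methods of the study name a HiSeq instrument, with strand-specific libraries and paired-end reads of 100 bp. The submitters' processing notes name HISAT2 2.1.0 and HTSeq. Reads were aligned to danRer10 (GRCz10) and counted on Ensembl genes (release 90) by gene name. The deposited files hold, for each gene, the raw count, the exon length and the RPKM, which the authors scaled to exon length and mapped reads. Both the count and the RPKM were used as deposited.

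The spread was taken as the SD or the highest minus the lowest library on log2(RPKM + 0.1), which understates the range of low genes, while folds are ratios of RPKM. Against a library at 0 counts, a fold is a lower bound with a floor of 3 counts in that library, and with 1 to 3 counts it has an exact 95% interval that covers counting error only. TMM factors (0.996, 0.892 and 1.126) and the biological coefficient of variation (intercept-only design) came from edgeR 4.0.16 in R 4.3.3. The calculation was tested on simulated data. No gene was tested, and nothing says that the libraries come from separate fish.

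Named were the 15 genes with the highest mean RPKM, the 20 detected genes with the largest SD, the 5 genes with the most counts in each on/off pattern, *lmo1*, *dbh*, *th*, the adrenergic CRC genes and, in each list, the most abundant gene and the 4 with the largest SD, of which a selection is given. Some genes that the rule names are not reported here. Genes shown beyond this rule were chosen after their values were seen. The members and lists were chosen with earlier results of these data known. Lists are described by counts and medians beside all detected genes, and 4 lists (*hoxb* a-cluster, other *hox*, islet, stathmin) were added after the values had been seen. Neighbours were read from RefSeq GRCz12tu, another build than that of the counts, so no coordinates are given. The TATA/TATA libraries were not used. Alternatives were other scalings, pseudocounts, level filters and count limits, and each library left out in turn.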

Additional observations from a re-analysis of the deposited data

How the results depend on the processing

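Counts of variable genes depended on the limits and on library 3. With at least 5 RPKM required in place of 1, 6395 genes were detected. Genes with a 4-fold range numbered 160 with a pseudocount of 1 RPKM and 913 over every gene with a count. With a replicate left out and genes filtered on the libraries left, there were 142 to 392, lowest without replicate 3 and 313 without replicate 1. Genes with at least 50 counts in one library and at most 3 in another numbered 39 at limits of 100 and 0, 68 among detected genes alone, and 53 to 121 with a replicate left out (106 without replicate 1, 121 without replicate 2 and 53 without replicate 3), as fewer libraries give fewer pairs. Of the 20 most variable genes, 10 to 18 kept a 4-fold range with a replicate left out, 10 without replicate 3. Without that replicate, the median SD was 0.207 in the IFN list and 0.150 in the liver list, against 0.268 over all detected genes. Without replicate 1 it was 0.236 in the islet list, against 0.280 over all detected genes. The islet genes were kept as detected with all 3 libraries. Of these, *gcga*, *gcgb*, *sst1.1* and *sst2* had at most 3 counts in both libraries left, so a small value was built in. Under TMM scaling the median SD of the ribosomal protein genes was 0.319 in place of 0.153, and that of all detected genes 0.287 in place of 0.331. The number of lists, of 19 with at least 3 detected genes, whose median SD exceeded that of all detected genes was 16, and 12 to 17 under the alternatives. The median SD of detected genes and the biological coefficient of variation stayed within 0.263 to 0.340 and 0.314 to 0.452. No paired analysis was possible because a single group was described and no groups were compared. Whether on/off genes neighbour each other was not run as a share, since 65.1% of them were placed in the RefSeq table, too few for such a check. Values under about 50 counts are limited by counting error, and no difference between single libraries has a replicate check.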
